A study of Homo sapiens with 3 samples.

Results

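The genes described here are the enzymes and regulators of glycolysis and a set of genes known to be switched on in low oxygen by the hypoxia-inducible factors (HIFs). Of 32 listed genes, 31 had a probe that passed the filter on dim signals, out of 14529 genes measured in all: 18 of 19 glycolytic genes and 13 of 13 other HIF targets. They were chosen by name, through the current symbol or an older alias (PKM2 for PKM, VEGF for VEGFA, JMJD1A for KDM3A). The remaining gene, PGAM1, which encodes phosphoglycerate mutase, had no probe under its name. The 31 genes were read by 39 probes, and 8 of them had 2 probes each.

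Glycolysis converts glucose to pyruvate in a chain of cytosolic enzymes, and lactate dehydrogenase reduces the pyruvate to lactate when it is not burnt in mitochondria. HIF is a dimer of an oxygen-regulated alpha subunit (HIF1A or EPAS1) and ARNT. In oxygen, prolyl hydroxylases of the EGLN family mark the alpha subunit for destruction through VHL. When oxygen is low the dimer binds DNA at hypoxia response elements and raises glycolytic enzymes, the angiogenic factor VEGFA, carbonic anhydrases and mitophagy genes. Colon carcinoma cells commonly run glycolysis at a high rate even in air.

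The cells were LS174T-tetON-NICD, human colon carcinoma cells (LS174T) that make NICD, the intracellular and active domain of the Notch receptor, when given doxycycline. On the TNF array the treated cells had received TNF (50 ng/ml), on the doxycycline array doxycycline (100 ng/ml), and on the combined array both, each for 24 h. Every array carried treated RNA in Cy3 and RNA of untreated cells of the same line in Cy5, with 1 culture and 1 array per condition and no dye swap. No cells without the NICD construct were given doxycycline, so effects of NICD and of the drug cannot be told apart, and the labels name no oxygen treatment and do not say whether the line is 1 clone. With 1 array per condition no p-value can be given. All counts describe these arrays only.

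Values are log2 ratios of treated over control after background correction and loess normalisation within each array, so that a value of 1 is a 2-fold higher treated signal. Signals are given as intensity over the blank spots. The median ratio of raw Cy3 to Cy5 signal was 1.83 with doxycycline, 1.86 with both and 0.972 with TNF. A log2 ratio near 0 therefore goes with a treated signal above the control signal on the doxycycline and combined arrays. On the TNF array this varied between genes. At a ratio of 0.02 there, ENO1 had signals of 18677 (control) and 34634 (treated), and EGLN3 of 182 and 181. Arrays measure RNA per amount of labelled RNA, and fewer cells expressing a gene cannot be told apart from less RNA per cell.

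Colon epithelial markers were present in the control channels: 7 of 7 measured markers (EPCAM, KRT18, KRT19, KRT20, CDH1, CDX2 and VIL1) were above background on all arrays. Of 8 measured markers of leukocytes, fibroblasts and endothelium, 4 were above background in all controls (CD14, DCN, VWF and CDH5), while PTPRC, CD3E and COL1A1 were above it in none. Of the gene probes, 17869 were above background in the treated channel of the TNF array, against 20156 with doxycycline and 20465 with both. Between probes of the same gene, the log2 ratio had an SD of 0.758 with TNF, 0.245 with doxycycline and 0.296 with both. The TNF array thus stood apart, and the comparisons that do not use it are given first. The control channels, all of untreated cells, gave a second yardstick. The centred log2 control level of the 31 genes differed between arrays by 0.0891 (median of the highest minus the lowest), with 27 of 31 under 0.2. Over all genes the median was 0.0981, with 13430 of 14529 under 0.2. Of the 31, LDHA (0.345) and BNIP3 (0.256) varied most. These levels include the offset of 50 added in the background correction, which narrows the differences of dim genes. The yardstick compares control channels only and does not measure the spread between treated cultures.

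The promoters of 5 genes on which the results below turn are shown first, since hypoxia response elements hold the core ACGTG or GCGTG. They are the 250 bases before the annotated start, 5′ to 3′ on the strand of the gene, from RefSeq (GRCh38.p14). Capitals mark ACGTG and GCGTG and their reverse complements CACGT and CACGC. Windows lie at chr15:63381847-63382096 (minus strand), chr9:35673678-35673927 (plus strand), chr10:131981924-131982173 (minus strand), chr2:74833877-74834126 (plus strand) and chr11:18394313-18394562 (plus strand, the first of its listed starts).
CA12: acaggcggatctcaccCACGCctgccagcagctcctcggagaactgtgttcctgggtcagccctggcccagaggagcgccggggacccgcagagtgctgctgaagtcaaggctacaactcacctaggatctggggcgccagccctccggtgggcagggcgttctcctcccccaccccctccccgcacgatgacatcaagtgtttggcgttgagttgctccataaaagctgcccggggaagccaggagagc
CA9: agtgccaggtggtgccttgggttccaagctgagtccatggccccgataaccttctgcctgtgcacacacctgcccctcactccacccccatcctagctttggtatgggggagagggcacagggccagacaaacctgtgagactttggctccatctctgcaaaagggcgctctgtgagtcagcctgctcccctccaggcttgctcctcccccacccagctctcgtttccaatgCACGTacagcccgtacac
BNIP3: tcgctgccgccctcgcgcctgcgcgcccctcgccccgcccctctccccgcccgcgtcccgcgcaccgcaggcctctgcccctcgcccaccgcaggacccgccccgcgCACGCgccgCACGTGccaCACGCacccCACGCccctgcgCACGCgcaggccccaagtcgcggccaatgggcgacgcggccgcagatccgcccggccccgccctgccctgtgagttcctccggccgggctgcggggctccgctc
HK2: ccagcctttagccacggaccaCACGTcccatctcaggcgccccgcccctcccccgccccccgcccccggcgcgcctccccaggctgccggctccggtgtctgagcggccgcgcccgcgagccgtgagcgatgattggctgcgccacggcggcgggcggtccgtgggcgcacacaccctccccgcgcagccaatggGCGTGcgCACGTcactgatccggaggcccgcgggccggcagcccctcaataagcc
LDHA: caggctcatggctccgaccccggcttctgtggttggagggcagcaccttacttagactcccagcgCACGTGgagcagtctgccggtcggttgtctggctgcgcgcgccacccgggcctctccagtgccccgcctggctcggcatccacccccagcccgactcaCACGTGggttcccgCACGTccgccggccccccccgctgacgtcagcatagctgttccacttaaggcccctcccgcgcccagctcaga

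Counting both strands, and the palindrome CACGTG once on each strand, these windows held 1 match in CA12, 1 in CA9, 6 in BNIP3, 3 in HK2 and 5 in LDHA. The single match of CA9 began 18 bases before the start and that of CA12 began 234 bases before it. At least 1 match was found in 12 of 18 glycolytic promoters (66.7%) and in 8 of the 10 HIF target promoters in the table (80.0%), against 53.9% of the 11694 promoters of measured genes and 43.1% of all 27305 promoters. A match of these letters is a description of the window and not evidence of binding.

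The first comparison asked what doxycycline, and with it NICD, did to these genes. Of the 31, 28 lay within 2-fold of the control. CA12, a membrane-bound carbonic anhydrase, was the 1 gene at least 2-fold higher, where 1.18% of all genes were that high. CA9, the carbonic anhydrase best known as a hypoxia marker, and BNIP3, a mitophagy receptor of the outer mitochondrial membrane, were at least 2-fold lower, where 0.406% of all genes were that low. None of the 18 glycolytic genes was in either group. Under median centring, used instead of loess, the counts were 1 higher and 0 lower, where 3.72% and 0.131% of all genes were.

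The CA12 signal was 629 in control and 2602 in doxycycline-treated cells, 684 and 2449 on the combined array, and 776 and 1172 on the TNF array. Its log2 ratio was 1.10 (2.14-fold) with doxycycline, 0.97 with both and 0.06 with TNF. The 2 arrays with doxycycline were the high ones, and they differed from each other by 0.13. Over TNF alone the combined value stood at 0.91. Under the other settings tried, the ratio of CA12 ranged from 1.09 to 1.62 on the doxycycline array.

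CA9 went the other way. Its signal was 86.5 in control and 37.0 in doxycycline-treated cells, 83.6 and 30.5 on the combined array, and 98.9 and 90.9 on the TNF array. The log2 ratios were -1.01 (2.01-fold lower), -1.12 (2.17-fold lower) and 0.10, so that again both arrays with doxycycline lay on one side and the TNF array near 0. The control signals of the 3 arrays were close to each other (0.0209 on the centred log2 scale, with the offset included). On top of TNF, doxycycline gave -1.22. Because the gene is dim, the offset used in the correction pulls its ratio towards 0: the doxycycline value was -1.45 with an offset of 16, -2.08 in the authors' processed values, -0.92 with median centring, and -0.44 when the scanner's local background was subtracted.

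BNIP3 had signals of 830.0 and 609 with doxycycline, 686 and 987 with both, and 917 and 790.3 on the TNF array, control first. Its log2 ratios were -1.23, -0.28 and -0.68. It was the lowest of the 31 genes with doxycycline alone, but not with both treatments. With median centring it stood at -0.75 with doxycycline and 0.14 with both. BNIP3L, its relative and likewise a mitophagy receptor, stood at 0.03 with doxycycline and 0.32 with both as the mean of 2 probes. These gave 0.21 and -0.16 with doxycycline, and 0.67 and -0.02 with both.

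**Figure D1:**
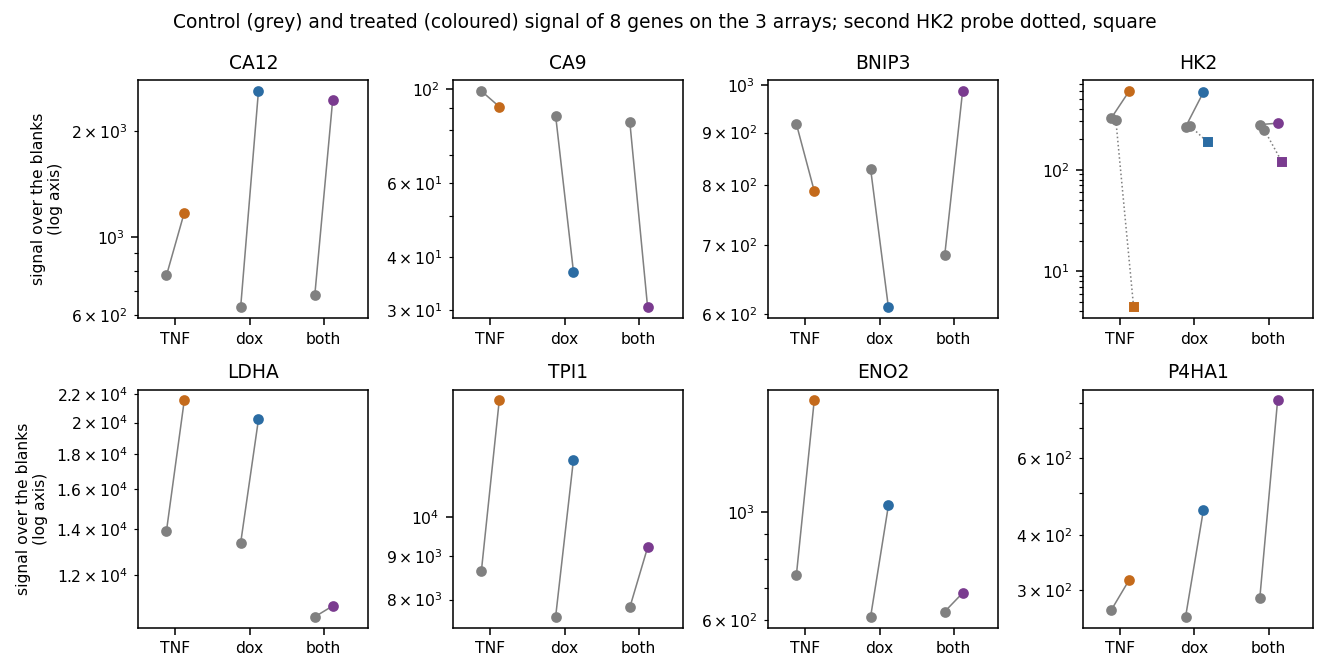
Signal over the blank spots (log axis, a scale of its own in each panel) of 8 genes in the control channel (grey) and the treated channel (coloured) of the TNF, doxycycline (dox) and combined arrays. The line of CA12 is steepest upwards on the 2 arrays with doxycycline, from 629 to 2602 and from 684 to 2449, where CA9 goes down from 86.5 to 37.0 and from 83.6 to 30.5.

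Other HIF targets that lay below 0 with doxycycline by more than the SD between probes of 1 gene were NDRG1, a stress-responsive gene linked to differentiation (-0.88), EGLN3 (-0.56) and EGLN1 (-0.25), prolyl hydroxylases that mark HIF for degradation and are HIF targets themselves. In all, 5 of 13 HIF targets lay that far below 0, CA9 and BNIP3 included, against 11.0% of all genes. Above it lay 3 of 13, namely CA12, P4HA2 (0.45) and KDM3A (0.32), against 17.4% of all genes. P4HA2 is a subunit of the collagen prolyl hydroxylase and KDM3A a histone H3 lysine 9 demethylase. Near 0 were VEGFA (0.09), ADM, the gene of the vasodilator adrenomedullin (0.18), P4HA1 (-0.04) and ANKRD37 (-0.03). The median of the 13 was -0.03, beside 0.01 for all genes. It was 0.23 with median centring, where all genes had a median of 0.14.

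Along the glycolytic chain the doxycycline values per gene were all within 2-fold. Below 0 by more than the SD between probes of 1 gene lay 6 of 18 (HK2, GPI, TPI1, GAPDH, PKM and LDHA), against 11.0% of all genes. Above it lay 3 of 18 (PFKP, PGK1 and PDK1), against 17.4%. With median centring GPI, TPI1, GAPDH, PKM and LDHA turned above 0. Of the hexokinases, which trap glucose as glucose 6-phosphate, HK1 stood at -0.15, and the probes of HK2 disagreed (0.24 and -1.08). Phosphoglucose isomerase (GPI) stood at -0.26. The phosphofructokinase genes, whose products commit sugar to glycolysis, ran from -0.21 (PFKM) over 0.21 (PFKL) to 0.46 (PFKP). PFKFB3 and PFKFB4, which make and break the allosteric activator fructose 2,6-bisphosphate, stood at 0.12 and -0.09.

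Of the later enzymes, the aldolases ALDOA and ALDOC stood at 0.12 and -0.07, triose phosphate isomerase TPI1 at -0.29, and GAPDH at -0.59 and 0.05 by its 2 probes. PGK1, phosphoglycerate kinase, stood at 0.27, and the enolases ENO1 and ENO2 at -0.08 and -0.12. Pyruvate kinase (PKM) stood at -0.30 and lactate dehydrogenase A (LDHA) at -0.31. PDK1, the kinase that blocks entry of pyruvate into the citric acid cycle, stood at 0.29. The median of the 18 was -0.11, and with median centring 0.29, so that the side of 0 on which the glycolytic list lay depended on the scaling.

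**Figure D2:**
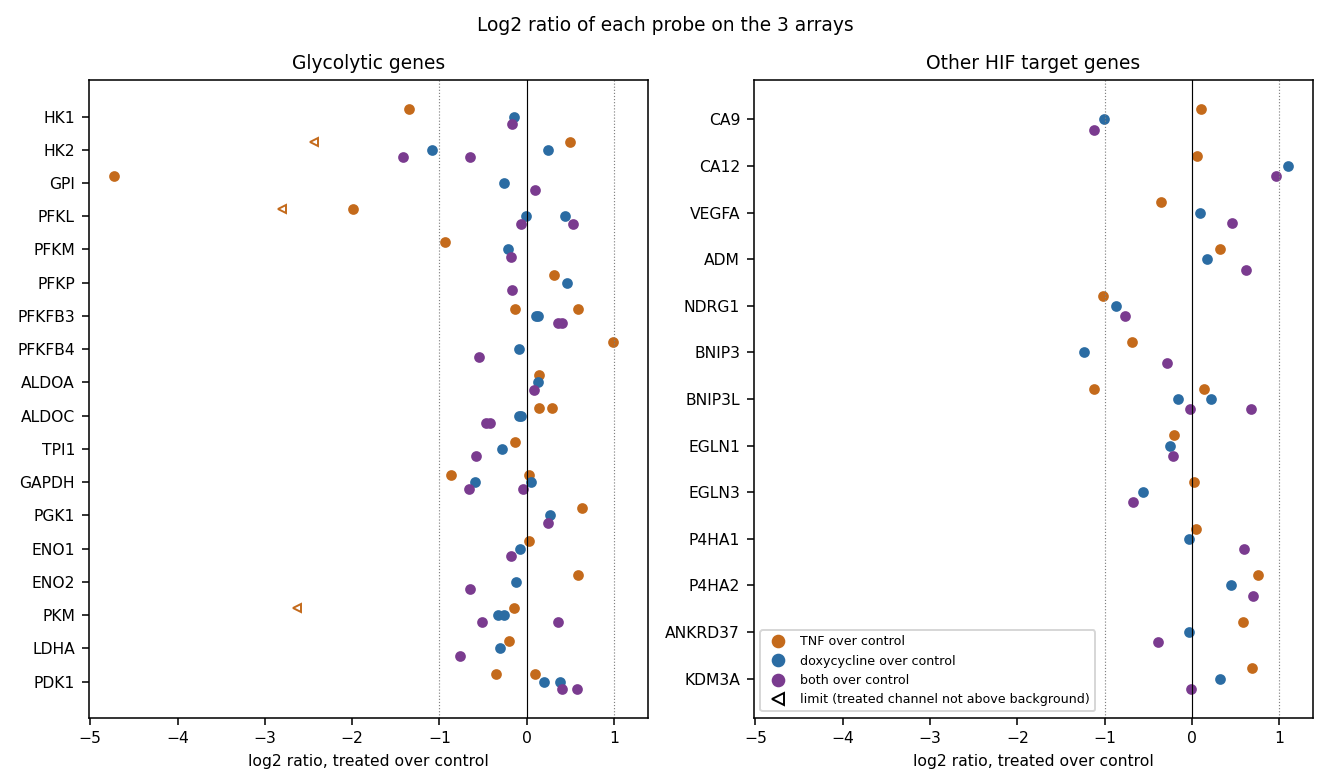
Log2 ratio of treated over control (x axis) for each probe of the 18 glycolytic genes (left) and the 13 other HIF targets (right) on the TNF (orange), doxycycline (blue) and combined (purple) arrays. Dotted lines mark 2-fold, and open triangles mark upper limits. The doxycycline and combined points lie close to 0 for most genes, whereas the TNF points reach -4.73 (GPI) and lie far apart for the 2 probes of HK2 and of PKM.

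The next comparison asked what both treatments together did against untreated cells. No gene of the 31 was at least 2-fold higher, where 3.17% of all genes were, and 2 were at least 2-fold lower, namely CA9 (-1.12) and HK2 (-1.04), where 2.13% of all genes were. With median centring in place of loess 2 were higher (CA12 1.41, P4HA2 1.03) and 0 lower, where 6.64% and 0.929% of all genes were. The glycolytic list had a median of -0.18 and the HIF target list of -0.01, beside 0.00 for all genes. With median centring these were 0.25, 0.39 and 0.13.

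HK2, the inducible hexokinase of many tumours, was read by 2 probes. The first had signals of 279 (control) and 288 (treated) on the combined array, 265 and 581 on the doxycycline array, and 325 and 597 on the TNF array. The second had 247 and 119 on the combined array, 270.4 and 186 on the doxycycline array, and 307 and 4.39 on the TNF array, where the treated spot was not above background. Their log2 ratios on the combined array were -0.65 and -1.42, both below 0. On the other arrays the probes lay on opposite sides of 0, at 0.24 and -1.08 with doxycycline and at 0.49 and at most -2.43 with TNF. With the brighter probe alone HK2 was not 2-fold lower with both treatments.

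Several later enzymes also lay lower with both than with doxycycline alone. The LDHA signals were 10440.2 (control) and 10825 (treated) on the combined array, against 13364 and 20211 with doxycycline and 13911 and 21539.7 with TNF. Its log2 ratio was -0.76 with both, -0.31 with doxycycline and -0.21 with TNF. The combined array was the lowest in both channels. TPI1 had signals of 7833 and 9216 on the combined array, 7636 and 11684 with doxycycline and 8656 and 13725 with TNF, and ratios of -0.58, -0.29 and -0.13.

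ENO2, the neuronal enolase and a HIF target, had signals of 625 and 682 on the combined array, 610.0 and 1030.3 with doxycycline and 744 and 1689 with TNF. Its ratios were -0.65, -0.12 and 0.59, each array on a different level. PFKFB4 stood at -0.55 with both and ALDOC at -0.44, with both ALDOC probes close together (-0.46 and -0.42). GAPDH stood at -0.35, the mean of probes at -0.66 and -0.04 with control signals of 23119 and 70.3. In all, 7 of 18 glycolytic genes, GAPDH included, lay below 0 by more than the SD between probes of 1 gene, against 15.2% of all genes. Above it lay 2 (PDK1 0.48, PFKFB3 0.38), against 19.4%. Subtracting the scanner's local background, LDHA turned to 0.70 and ENO2 to 0.10, while TPI1 stood at -0.76. With median centring all 3 stayed below 0 (LDHA -0.30, ENO2 -0.23, TPI1 -0.12).

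Among the HIF targets, 6 of 13 lay above 0 by more than that SD with both treatments, against 19.4% of all genes, and 4 below it, against 15.2%. The higher ones were CA12 (0.97), P4HA2 (0.70), ADM (0.61), P4HA1 (0.59), VEGFA (0.46) and BNIP3L (0.32). The lower ones were CA9, NDRG1 (-0.77), EGLN3 (-0.67) and ANKRD37 (-0.39). The P4HA1 signals were 287 and 809.8 on the combined array, 261 and 456 on the doxycycline array, and 270.4 and 316 on the TNF array. The combined array was the high one, and the ratios were 0.59, -0.04 and 0.05. Genes known as HIF targets lay on both sides of 0 on the same array.

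**Figure D3:**
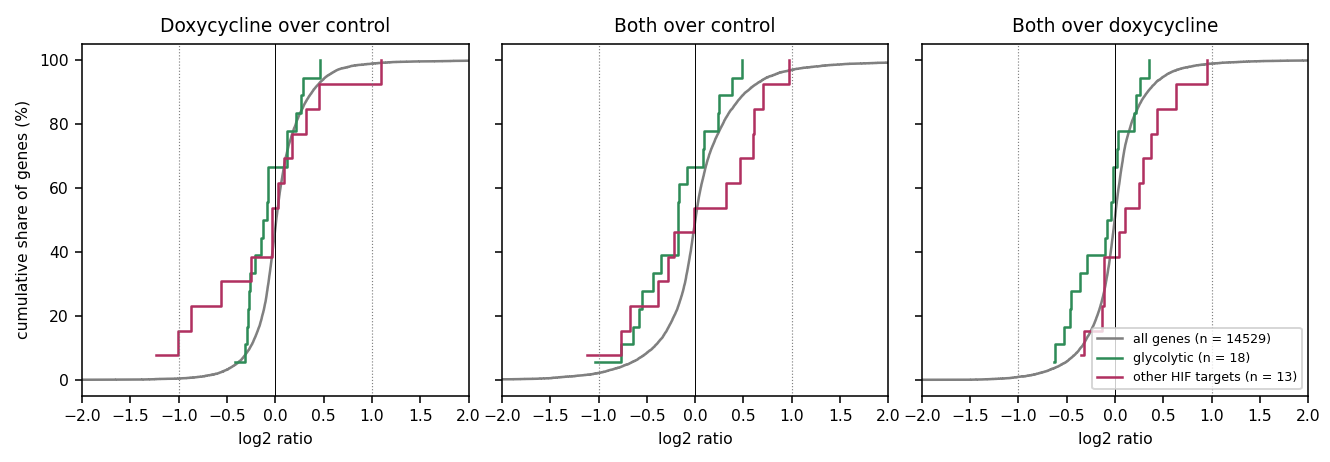
Cumulative share of genes (y axis, %) against the log2 ratio (x axis) for all 14529 genes (grey), the 18 glycolytic genes (green) and the 13 other HIF targets (red), for doxycycline over control, both over control, and both over doxycycline, after loess. Dotted lines mark 2-fold. In the middle panel the medians are -0.18 (glycolytic) and -0.01 (HIF targets) beside 0.00 for all genes, and with median centring in place of loess they turn to 0.25 and 0.39 beside 0.13.

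TNF on top of doxycycline was read as the difference of the combined and doxycycline ratios, without the TNF array. No gene of the 31 reached 2-fold in either direction, where 1.16% of all genes were that much higher and 0.909% that much lower. The glycolytic median was -0.06 and the HIF target median 0.11, beside 0.00 for all genes. With median centring they were -0.12 and 0.16, so that the choice of scaling mattered less here.

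Of the glycolytic genes 5 lay below 0 by more than 0.384, the SD between probes of 1 gene carried to a difference of 2 arrays, where 8.82% of all genes did. They were PFKP (-0.63), HK2 (-0.62), ENO2 (-0.52), PFKFB4 (-0.46) and LDHA (-0.45). None lay above it. Of the HIF targets 3 lay above it, where 8.32% of all genes did, namely BNIP3 (0.95), P4HA1 (0.63) and ADM (0.44), and none lay below it. With the local background in place of the blanks LDHA turned to 0.34, and ENO2 (-0.14), PFKFB4 (-0.35) and ADM (0.08) came within 0.384 of 0, while PFKP, HK2, BNIP3 and P4HA1 stayed past it. The local background setting also put ALDOA, a bright gene, at 5.12 with doxycycline over control, against 0.12 with the blanks. The PFKP signals were 627 and 1631 with doxycycline and 684 and 1068 with both, control first.

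The value of BNIP3 rests on its low ratio on the doxycycline array (-1.23 against -0.28 on the combined array). Its control signal was 830.0 on the first and 686 on the second. ALDOC (-0.37), ANKRD37 (-0.35), KDM3A (-0.33) and TPI1 (-0.29) lay nearer to 0 on the low side, and VEGFA (0.37), GPI (0.35), BNIP3L (0.29), PFKFB3 (0.26) and P4HA2 (0.25) on the high side. Both carbonic anhydrases stayed near 0 (CA12 -0.13, CA9 -0.11). So did PGK1 (-0.02), ALDOA (-0.05), GAPDH (-0.08) and ENO1 (-0.10). Of the 31 genes, 28 kept their side of 0 with median centring, 29 in the authors' processed values and 25 after subtracting the scanner's local background. PFKL (0.02) and PFKM (0.03) turned in the first 2 of these and HK1 (-0.02) with median centring. With the local background PFKL, ALDOA, GAPDH, LDHA, CA12 and EGLN1 turned.

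**Figure D4:**
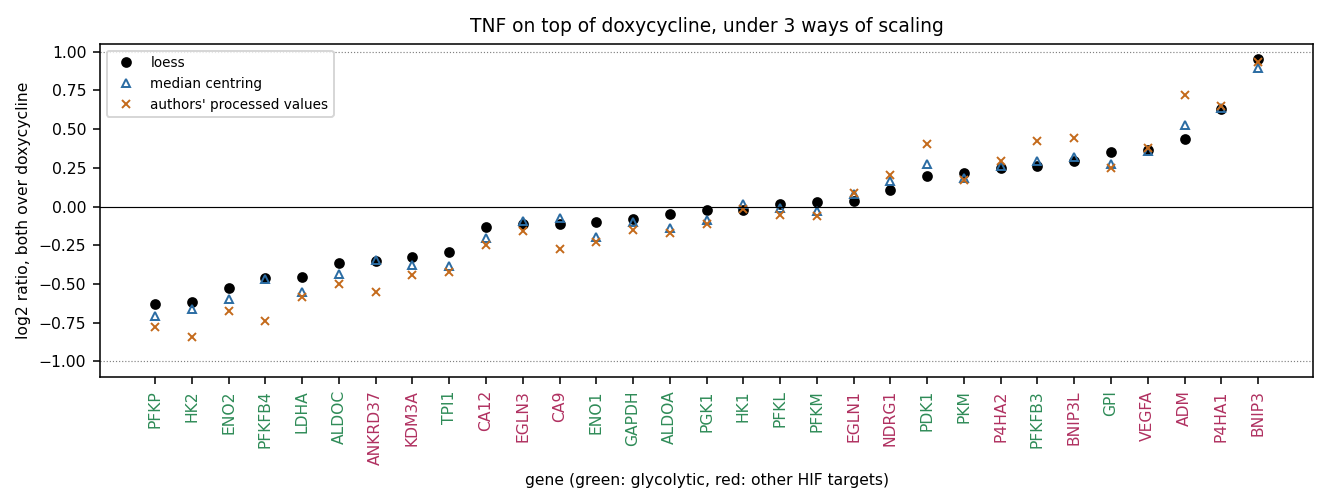
Log2 ratio of both treatments over doxycycline (y axis) for the 31 genes in the order of their value after loess (black), with median centring (blue) and in the authors' processed values (orange). Glycolytic names are green and other HIF targets red. The values run from -0.63 (PFKP) to 0.95 (BNIP3) after loess, all within 2-fold (dotted lines). The local background setting is not drawn, under which 6 of the 31 changed side and LDHA stood at 0.34.

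TNF alone was read on the TNF array, whose treated channel stood apart. No gene of the 31 was at least 2-fold higher, where 1.8% of all genes were, and 5 were at least 2-fold lower, where 12.2% of all genes were. These were GPI (-4.73), PFKL (at most -2.40), PKM (at most -1.39), HK1 (-1.35) and NDRG1 (-1.01). Under median centring 3 were higher (ENO2 1.10, PGK1 1.04, KDM3A 1.03) and 5 lower, where 5.24% and 12.4% of all genes were. The GPI signal was 1857 (control) and 28.0 (treated) on the TNF array, 1659 and 2569.7 with doxycycline, and 1574 and 2985 with both. The HK1 signals were 133 and 9.62 on the TNF array, 116 and 173 with doxycycline, and 118 and 179 with both. Each of these genes was within 2-fold when TNF was added to doxycycline, at 0.35 (GPI), 0.02 (PFKL), 0.22 (PKM), -0.02 (HK1) and 0.11 (NDRG1). So were all 31 genes, and 14225 of the 14529 genes measured.

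The probes of 1 gene also disagreed on the TNF array. The first probe of PKM had signals of 358 and 3.26 there, the treated one not above background, while the second had 794 and 1025. Their log2 ratios were at most -2.63 and -0.15. With doxycycline the same probes stood at -0.26 and -0.33, and with both treatments at 0.35 and -0.52. The probes of BNIP3L stood at -1.12 and 0.14 with TNF. Both PFKL probes were low, at -1.99 and at most -2.81, with treated signals of 10.7 and 1.40.

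The highest ratios with TNF alone were those of PFKFB4 (0.98), P4HA2 (0.76), KDM3A (0.69), PGK1 (0.63), ENO2 (0.59) and ANKRD37 (0.59). PFKFB4 had signals of 109 and 259.8 with TNF, 93.0 and 145 with doxycycline, and 89.8 and 86.2 with both, and only its TNF ratio was above 0. P4HA2 had signals of 139.7 and 274, 125 and 326, and 116 and 383 in the same order, and its ratio was above 0 on all 3 arrays (0.76, 0.45 and 0.70). LDHA, ALDOA, ENO1, TPI1, CA9, CA12, EGLN3 and P4HA1 lay between -0.21 and 0.14 with TNF. The glycolytic median was -0.13 and the HIF target median 0.05, beside 0.00 for all genes, and with median centring these turned to 0.51 and -0.02.

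Doxycycline on top of TNF, the combined minus the TNF array, takes over the low values of the TNF array. GPI (4.82), PFKL (at least 2.63), PKM (at least 1.31) and HK1 (1.19) were at least 2-fold higher, where 13.9% of all genes were. The second probe of PKM alone stood at -0.37. PFKFB4 (-1.53), ENO2 (-1.23) and CA9 (-1.22) were at least 2-fold lower, where 3.28% of all genes were. CA9 was the 1 gene of the 31 that was at least 2-fold lower with doxycycline both over control and over TNF, and no gene was at least 2-fold higher in both. How many of all genes passed both readings was not counted. The CA9 value over control (-1.01) was close to the threshold and ranged from -2.08 to -0.44 under the other settings.

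Against the sum of the single treatments, the combined log2 ratio was at least 1 higher for GPI (5.08), PFKL (at least 2.42), BNIP3 (1.64), PKM (at least 1.61), HK1 (1.33) and NDRG1 (1.12), where 13.8% of all genes were. It was at least 1 lower for PFKFB4 (-1.45), ENO2 (-1.11) and KDM3A (-1.01), where 5.09% of all genes were. Under median centring 6 were higher and 10 lower, where 14.7% and 9.91% of all genes were. All of these use the TNF array. The difference from the sum was -0.21 for CA9 and -0.19 for CA12, beside an SD between probes of 1 gene of 0.850 for this comparison. Their TNF ratios were near 0 (0.10 and 0.06), so the sum was almost the doxycycline ratio. Whether the treatments add up for these genes cannot be read from it.

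All 10 measured genes of the HIF machinery were within 2-fold with doxycycline and with both. So were most genes measured, 14299 of 14529 with doxycycline and 13759 with both. HIF1A, the main oxygen-regulated subunit, stood at -0.40 with doxycycline and 0.05 with both. It stood at -1.26 with TNF, with signals of 282 and 97.6 as means of 2 probes that lay 1.07 apart. EPAS1, the other alpha subunit, stood at 0.12 and 0.16 with signals close to the blanks (5.53 in control and 18.8 in treated cells with doxycycline, 3.83 and 19.2 with both), where the offset of the correction pulls a ratio towards 0. ARNT, the shared partner, stood at 0.25 and 0.21 as the mean of 2 probes that lay 0.633 and 0.481 apart. It was dim too, with mean control signals of 14.8 and 17.3. VHL, which recognises hydroxylated HIF, stood at 0.55 and 0.61, with signals of 55.2 and 172 with doxycycline and 63.6 and 214 with both. HIF1AN, the asparagine hydroxylase that blocks HIF transactivation, stood at 0.27 and 0.21.

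Of 33 further measured genes of glycolysis, pyruvate, lactate and glycogen, none was 2-fold higher or lower with doxycycline, where 1.18% and 0.406% of all genes were. With both treatments 1 was higher and 2 were lower, where 3.17% and 2.13% of all genes were. SLC16A3, the lactate exporter MCT4, stood at -1.43 with both and -0.68 with doxycycline, with signals of 445 and 249 on the combined array and 420.2 and 449 on the doxycycline array. PCK1, which encodes cytosolic phosphoenolpyruvate carboxykinase of gluconeogenesis, stood at -1.40 and -0.65. PDP1, the phosphatase that reactivates pyruvate dehydrogenase, stood at 1.10 and 0.77. The list median was -0.06 with doxycycline and -0.03 with both.

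Of 32 further measured HIF targets, 1 was at least 2-fold higher with doxycycline, and 4 were higher and 1 was lower with both. Of all genes 1.18% were higher with doxycycline, and 3.17% higher and 2.13% lower with both. SLC2A1, the glucose transporter GLUT1, was the 1 gene higher with doxycycline, at 3.55. It stood at 4.30 with both and 0.28 with TNF, with treated signals of 18867, 31527 and 1589 over controls of 817, 856 and 872. ERO1A, an oxidase of the endoplasmic reticulum, stood at 0.80 with doxycycline, 1.75 with both and 0.64 with TNF. PNRC1, a nuclear receptor coactivator, stood at 0.21, 1.38 and 0.38, and its 2 probes lay 1.00 apart on the combined array.

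TMEM45A stood at 1.86 with both and at least 1.57 with TNF, with control signals close to the blanks. TFRC, the transferrin receptor, stood at -1.12 with both, 0.07 with doxycycline and 0.56 with TNF. The list median was 0.05 with doxycycline and -0.06 with both. Values in this list ran from 4.30 (SLC2A1) to -1.12 (TFRC) on the combined array.

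**Figure D5:**
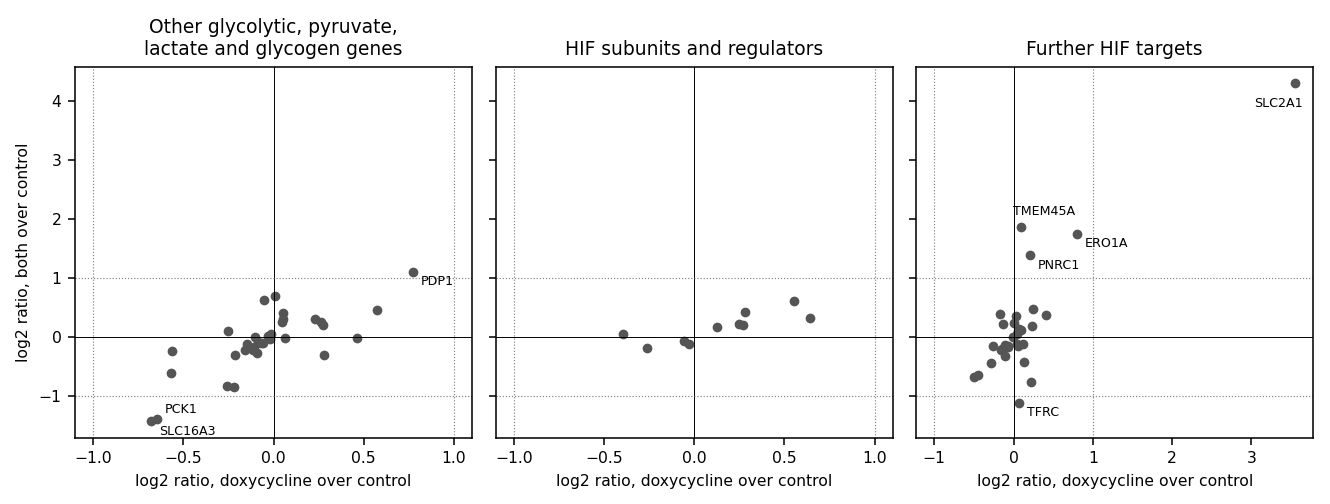
Log2 ratio of both treatments over control (y axis) against that of doxycycline over control (x axis) for 33 further glycolytic, pyruvate, lactate and glycogen genes (left), 10 HIF subunits and regulators (middle) and 32 further HIF targets (right), 1 point per gene. Dotted lines mark 2-fold, and genes past it are named. SLC2A1 stands alone at 3.55 and 4.30.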

How the data were processed

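Total RNA was amplified and dye-labelled, per the labels' protocols. The authors deposited the median intensity of each spot at 2 wavelengths, combined from scans at 3 gains per the file headers, and a local background intensity. They also deposited a table of log2 ratios. All 18330, 19535 and 19605 of its values on the TNF, doxycycline and combined arrays were recomputed within 0.001 as Cy3 over Cy5, each less the trimmed mean of the blanks and centred on the median, which fixed the direction as treated over control. The image software was not given in the sources used here.

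The 5%-trimmed mean of the 2680 blanks was the background. Signals were corrected by normexp (saddle-point, offset 50) and normalised within arrays by loess (limma 3.58.1, R 4.3.3), control spots having no weight. A channel past the 95th percentile of the blanks was above background. Each kept probe was above it in 1 or both channels on every array; 3 marked as bad were dropped. Of the 24460 gene probes, 20236 had 1 symbol and 4224 none. Symbols were updated through RefSeq (2899 changed, 99 unmatched), and 16336 probes were averaged to 14529 genes. A ratio with a channel not above background is a limit, computed with the dim channel at the dimmest signal above background, and counts as 2-fold only where the limit does. No member spot was saturated.

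No test was possible. The members and the lists were chosen with earlier results of these data known. All members are named. Of the other listed genes, HIF1A, EPAS1, ARNT, VHL, HIF1AN, SLC2A1 and SLC16A3 were always named, as were those at least 2-fold from 0 in both readings of a treatment or with both treatments. Signals are given for members that were 2-fold in these ways or had disagreeing probes; those of LDHA, TPI1, ENO2, P4HA1, PFKP, PFKFB4, P4HA2 and a few others were chosen after their values were seen. The procedure was checked on simulated arrays, with known folds set on bright probes only and the same dye ratio throughout. That check does not cover dim genes such as CA9. Python 3.11.15, numpy 2.4.6, pandas 2.3.3 and matplotlib 3.10.9 were also used.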

Additional observations from a re-analysis of the deposited data

Results flagged for a closer look

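In 3 genes the readings of 1 treatment lay on opposite sides of 0, each by more than the SD between probes of 1 gene. PFKFB4 stood at 0.98 with TNF over control and at -0.46 with TNF on top of doxycycline, a difference of -1.45. GPI stood at -0.26 with doxycycline over control and at 4.82 with doxycycline on top of TNF, a difference of 5.08. PKM stood at -0.30 and at least 1.31 in the same readings, a difference of at least 1.61. That rests on its first probe, whose treated spot was not above background on the TNF array. The second PKM probe stood at -0.33 and -0.37, on 1 side of 0. Under median centring the doxycycline values over control of GPI (0.27) and PKM (0.15) lay above 0, so that their readings were then on 1 side. These differences were not tested, since each reading has 1 array, and all of them use the TNF array, on which probes of 1 gene differed by an SD of 0.758.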

How the results depend on the processing

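No paired analysis was possible because each condition had 1 array. No replicate could be left out. Of 90 recounts of genes at least 2-fold higher or lower among the 31, 69 stayed within 1.5 times the count reported, and 21 did not. With doxycycline over control (1 higher, 2 lower) the local background gave 2 and 1 (1.56% and 0.296% of all genes), and median centring gave 0 lower (0.131%). With both over control (0 and 2) the local background gave 2 and 0 (2.54% and 1.32%), median centring 2 and 0 (6.64% and 0.929%), and the brightest probe per gene 1 lower (2.31%). With both over doxycycline (0 and 0) an offset of 16 gave 1 higher (BNIP3, 1.02, with 1.71% of all genes) and the local background 1 lower (KDM3A, -1.02, with 1.34%). With TNF over control (0 and 5) the authors' processed values gave 6 higher (12.9% of all genes), median centring 3 (5.24%), and no background subtraction, an offset of 16 and the local background 1 each (2.20%, 2.97% and 1.89%), and the local background gave 3 lower (8.13%). With both over TNF (4 and 3) the authors' processed values gave 7 and 13 (23.5% and 13.8% of all genes), and the local background 1 lower (3.0%). Against the sum (6 and 3) the authors' processed values gave 11 lower (17.7% of all genes) and median centring 10 (9.91%). The causes were not tested. With the brightest probe in place of the mean, PKM turned to -0.37 for both over TNF and -0.040 against the sum, since its probe that was not above background then drops out. Keeping probes by the doxycycline and combined arrays alone, an alternative chosen after seeing the data, gave the same counts for the 3 comparisons without the TNF array. With doxycycline 18 of 31 genes kept their side of 0 under median centring, which moved the median of all genes from 0.01 to 0.14, and 30 in the authors' processed values. After median centring, 540 genes in all were 2-fold higher and 19 lower with doxycycline, against 171 and 59, and 965 and 135 with both, against 460 and 310. With the local background ALDOA stood at 5.12 with doxycycline and 5.93 with both, against 0.12 and 0.08. It was thus 1 of the 2 genes counted as higher under that setting in each of these comparisons. Dim genes such as CA9 are limited by their signal over the blanks.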
